A study of Mus musculus with 12 samples.

Results

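RNA-Seq libraries of U2OS cells, a human osteosarcoma line, transfected with the siRNA siSRSF1-2 were compared with libraries of U2OS cells in which LINC01134 was upregulated (OE-LINC01134). The comparison took its members from the group labels, with 3 libraries on each side, and so used 6 of the 12 libraries of the series. The other 6 libraries were 3 of blank U2OS cells and 3 of U2OS cells transfected with a second siRNA against the same gene, siSRSF1-3, and they served here only to show where the compared groups lay. Of 58735 genes listed, 17538 had a mean FPKM (fragments per kilobase of gene at a common depth, with a scaling between libraries already in the deposited values) of at least 0.5 over the 12 libraries and were tested. Both sides of the comparison were manipulated cells, so a difference could come from the siRNA, from the overexpression or from both, and these cannot be told apart within the 6 libraries. No library of cells with a control siRNA or an empty vector was used here, so the effect of transfection or of the vector cannot be told apart from that of the targeted gene either. How LINC01134 was upregulated, and whether the cells were a single clone, was not given in the sources used here. The methods describe siRNA transfection for HOS cells, another osteosarcoma line, and it is not said whether the U2OS cells received the same dose for the same time.

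SRSF1 belongs to the SR proteins, which bind exonic sequences of pre-mRNA, help the spliceosome to recognise splice sites and also act in mRNA export, stability and translation. The gene was first described as a splicing factor that can favour one splice site over another, and it is known as a proto-oncogene when overproduced. LINC01134 is a long intergenic non-coding RNA gene on chromosome 1, and its transcript carries no known protein product.

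Between 26470200 and 32954539 reads fell on genes in the 3 siSRSF1-2 libraries and between 26699805 and 27530459 in the 3 OE-LINC01134 libraries. Replicates within a group were not equally alike. Pairs of siSRSF1-2 libraries gave a chi-square of 2.60 to 3.20 per degree of freedom over their read counts, and OE-LINC01134 replicates 1 and 3 gave 2.13, whereas OE-LINC01134 replicate 2 gave 66.5 and 68.6 against them. Over the genes tested, OE-LINC01134 replicate 2 correlated more closely with blank replicate 1 (r = 0.952) than with OE-LINC01134 replicate 1 (r = 0.941) or replicate 3 (r = 0.940). Many results are therefore given with and without it, but not all, and a gene without a second value may still depend on it. The supplementary methods speak of 2 biological replicates per condition, whereas each group here has 3 libraries, and which of these came from separate cultures is not said. The p-values therefore measure the spread between these libraries, which may be in part technical.

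The targeted genes separated the groups. The level of SRSF1 (ENSG00000136450, chromosome 17, 58003360 to 58007346, minus strand) was 7.09, 7.46 and 7.41 FPKM in the siSRSF1-2 libraries and 31.8, 29.6 and 30.3 FPKM in the OE-LINC01134 libraries. The group means were 7.32 ± 0.202 and 30.6 ± 1.09 FPKM (SD, n = 3 each). Every siSRSF1-2 library lay far below every OE-LINC01134 library, and the replicates of each group lay close together. On the log2(FPKM + 0.1) scale used for all fold changes here, SRSF1 was lower with siSRSF1-2 by a log2 fold change of -2.05 (SE 0.0581, limma adjusted p = 5.17e-05). Blank cells had 35.9, 19.8 and 20.48 FPKM, so 1 blank library lay above the OE-LINC01134 libraries and the others lay below them, and the siSRSF1-3 libraries had 3.33, 6.81 and 7.90 FPKM. The exact two-sided permutation test of SRSF1 gave p = 0.1, which is the smallest p that 3 libraries against 3 allow.

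LINC01134 (ENSG00000236423, chromosome 1, 3900372 to 3917225, plus strand) had 891, 1279 and 878 FPKM in the OE-LINC01134 libraries and 0.728, 0.633 and 0.548 FPKM in the siSRSF1-2 libraries. These levels came from 104967, 142038 and 101990 reads on one side and 85, 76 and 79 reads on the other. The siSRSF1-2 libraries were in the range of the blank libraries (0.791, 0.519 and 0.497 FPKM) and of the siSRSF1-3 libraries (0.778, 1.11 and 0.592 FPKM). The log2 fold change was -10.41 (SE 0.171, limma adjusted p = 1.42e-05), and the exact permutation p was again 0.1. OE-LINC01134 replicate 2, which stood apart over all genes, carried the highest LINC01134 level.

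**Figure D1:**
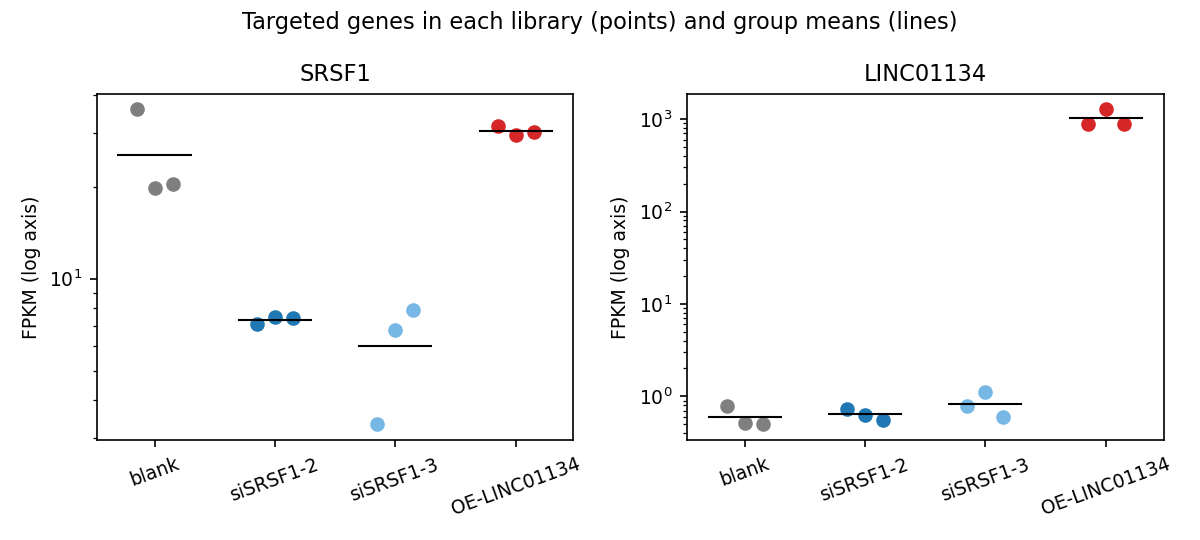
FPKM (log axis) of SRSF1 and LINC01134 in each of the 12 libraries by group, with points for libraries and lines for group means. SRSF1 was at 7.09 to 7.46 in the siSRSF1-2 libraries against 29.6 to 31.8 with OE-LINC01134, and LINC01134 was at 878 to 1279 with OE-LINC01134 and at most at 1.11 in the other 9 libraries.

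Beyond the targeted genes, more genes were higher than lower in the siSRSF1-2 libraries. At an adjusted p under 0.05 and a log2 fold change beyond 1, 760 genes were higher with siSRSF1-2, which is 4.33% of the genes tested, and 413 were lower, which is 2.35%. At an adjusted p under 0.05 with no minimum fold change, 2204 genes (12.6%) were higher and 2650 (15.1%) were lower. The smaller differences were thus more often in the lower direction and the larger ones in the higher direction. In 3900 genes (22.2%) all siSRSF1-2 libraries lay above all OE-LINC01134 libraries, and in 4533 genes (25.8%) all lay below, and these shares are the background for the counts of libraries that do not overlap given later. The median log2 fold change over all genes tested was -0.03.

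Genes called higher were mostly of low level in the overexpressing cells, with a median of 0.688 FPKM there and 2.54 FPKM with siSRSF1-2. The genes called lower had medians of 5.09 FPKM with OE-LINC01134 and 1.74 FPKM with siSRSF1-2. Protein coding genes made up 55.1% of the genes called higher and 58.4% of those called lower, against 70.0% of the genes tested. Long intergenic non-coding RNAs made up 15.5% and 15.98% of the called genes, against 6.87% of the genes tested. Without OE-LINC01134 replicate 2, 1111 genes were called higher and 599 lower, among them 710 and 356 of the genes called with all 6 libraries. The counts at an adjusted p under 0.05 with no minimum fold change rose over all genes in that fit, to 4454 higher and 5356 lower of the 17538, and counts of gene lists without this library are to be read against these. Without 1 of the 3 siSRSF1-2 libraries, between 484 and 496 genes were called higher. The calls count the 3 closely alike siSRSF1-2 libraries as separate samples. Nearly all calls were lost when these were averaged into 1 value. That fit takes its spread from the OE-LINC01134 libraries alone, replicate 2 included. It therefore cannot show how far the calls rest on counting alike libraries separately.

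**Figure D2:**
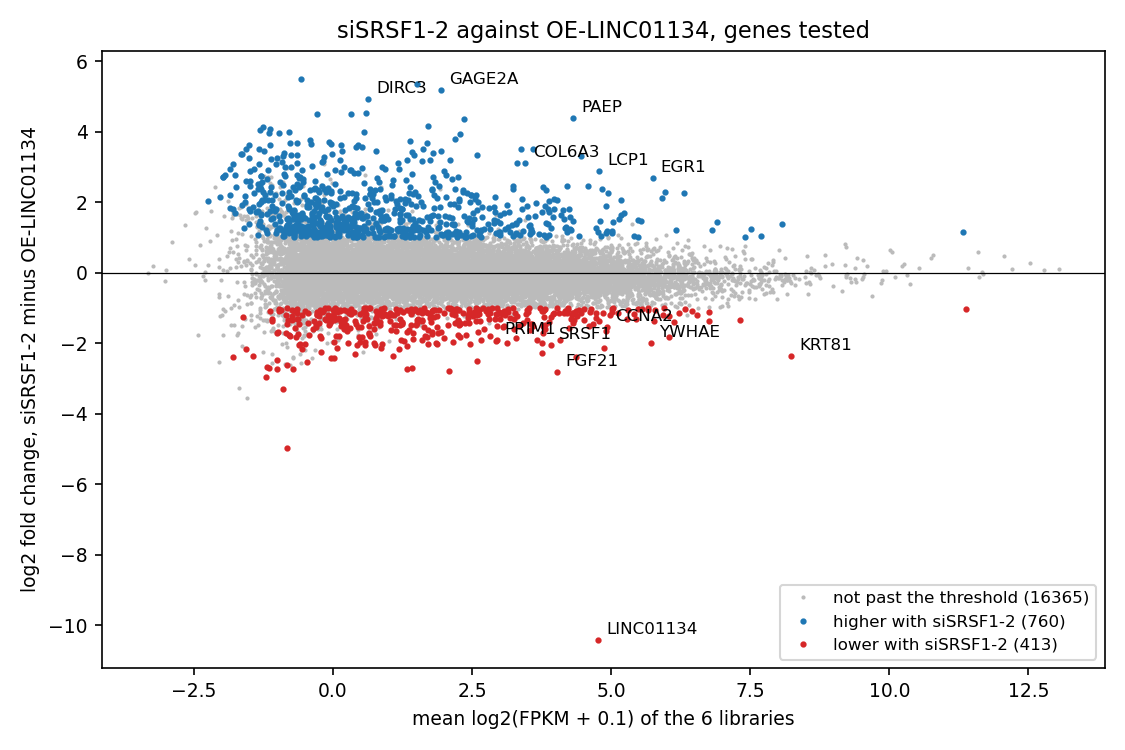
Log2 fold change (siSRSF1-2 minus OE-LINC01134) against the mean log2(FPKM + 0.1) of the 6 libraries for the 17538 genes tested, with the 760 genes called higher in blue and the 413 called lower in red. LINC01134 lies at -10.41, far from every other gene, and most of the large positive differences sit at low mean levels.

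Among the genes with the largest positive differences were secreted proteins and cytokines. PAEP, which encodes glycodelin, a secreted glycoprotein of the endometrium, was at 90.5, 91.0 and 92.0 FPKM with siSRSF1-2 and at 2.21, 14.02 and 2.48 FPKM with OE-LINC01134 (log2 fold change 4.38, SE 0.682, limma adjusted p = 0.00648). The groups did not overlap, and OE-LINC01134 replicate 2 lay nearest to the knockdown. Without that library the PAEP difference was 5.23. IL36B, a cytokine of the interleukin-1 family, was at 11.4, 14.9 and 14.8 FPKM against 0.794, 0.490 and 0.767 FPKM (4.16, SE 0.202, adjusted p = 0.000235). IL24, a cytokine of the interleukin-10 family, was at 16.9, 17.6 and 16.5 FPKM against 2.72, 0.148 and 2.58 FPKM (3.79, SE 0.934, adjusted p = 0.0293). Here OE-LINC01134 replicate 2 was the lowest library, the difference without it was 2.64, and the call was lost without any single siSRSF1-2 library. BCL2A1, an anti-apoptotic member of the BCL2 family, had 7.55, 11.1 and 10.3 FPKM against 0.412, 1.14 and 0.482 FPKM (3.74, SE 0.359, adjusted p = 0.00133).

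Other members of this set normally mark other tissues or the germline. GAGE2A, a cancer-testis antigen, was at 27.2, 20.8 and 21.5 FPKM with siSRSF1-2 and at 0.261, 1.18 and 0.464 FPKM with OE-LINC01134 (log2 fold change 5.17, SE 0.447, limma adjusted p = 0.00102). GAGE2A has near-identical copies on the X chromosome, so the share of reads that belongs to this copy is uncertain. All 9 other libraries were above the OE-LINC01134 libraries, with 24.8 to 29.9 FPKM in blank cells and 28.1 to 72.6 FPKM with siSRSF1-3. SPOCD1, which acts in piRNA-directed DNA methylation in the male germline, was at 22.96, 23.8 and 22.8 FPKM against 0.804, 1.47 and 0.943 FPKM (4.36, SE 0.203, adjusted p = 0.00021). AGXT, a peroxisomal aminotransferase of the liver, was at 1.97, 2.22 and 2.39 FPKM against 0.0387, 0.0575 and 0.0392 FPKM (3.98, SE 0.21, adjusted p = 0.000287). In blank cells AGXT was at 0.0405, 0.426 and 0.439 FPKM, below all 6 siRNA libraries. IGFN1, a protein of skeletal muscle, was at 10.8, 11.4 and 12.2 FPKM against 0.581, 1.62 and 0.528 FPKM (3.68, SE 0.385, adjusted p = 0.00179).

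For several of these genes the overexpressing cells had few reads. CLEC3A, a C-type lectin of cartilage, had 510 reads over the siSRSF1-2 libraries and 3 over the OE-LINC01134 libraries, a ratio of 154 per read of depth with a 95% exact counting interval of 52.4 to 749. ENTHD1 had 485 reads against 4, a ratio of 110 with an interval of 42.6 to 405. C6orf15 had 764 reads against 23, a ratio of 30.1 with an interval of 19.9 to 47.7. These intervals cover counting error only, and the log2 fold changes of 4.08, 3.97 and 4.53 understate such differences because of the pseudocount.

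The differences with the smallest adjusted p were in genes of moderate level whose 6 libraries formed tight groups. LCP1 encodes L-plastin, which bundles actin filaments, and had 70.7, 76.02 and 77.3 FPKM with siSRSF1-2 against 10.7, 9.71 and 9.71 FPKM with OE-LINC01134 (log2 fold change 2.88, SE 0.0667, limma adjusted p = 4.12e-05). Blank replicates 2 and 3 had 66.9 and 69.4 FPKM, near the knockdown, and blank replicate 1 had 24.7 FPKM. GPR137B, a lysosomal membrane protein, had 70.7, 75.6 and 75.5 FPKM against 17.2, 17.7 and 17.7 FPKM (2.07, SE 0.0532, adjusted p = 4.12e-05). Here the blank libraries, at 13.1, 18.8 and 20.1 FPKM, lay on the side of the overexpressing cells, and the siSRSF1-3 libraries, at 39.9, 46.6 and 44.8 FPKM, lay between. TRIML2, a member of the tripartite motif family, had 138, 141 and 139 FPKM against 27.6, 30.1 and 26.98 FPKM (2.30, SE 0.0601, adjusted p = 4.12e-05). DCDC2C, which carries doublecortin domains of the kind that bind microtubules, had 62.8, 67 and 65.4 FPKM against 12.8, 11.7 and 13.1 FPKM (2.37, SE 0.0644, adjusted p = 4.51e-05). GPNMB, a transmembrane glycoprotein, had 32.8, 32.4 and 31.3 FPKM against 9.31, 9.33 and 9.55 FPKM (1.76, SE 0.0522, adjusted p = 5.96e-05).

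Non-coding genes were also among those with large positive differences. The long non-coding RNA DIRC3 was at 8.14, 8.35 and 8.66 FPKM with siSRSF1-2 and at 0.229, 0.180 and 0.142 FPKM with OE-LINC01134 (log2 fold change 4.91, SE 0.152, limma adjusted p = 6.91e-05). All siRNA libraries were above the other 6 for DIRC3, with 5.05 to 6.32 FPKM for siSRSF1-3 and 0.449 to 1.36 FPKM in blank cells. LINC02392 was at 15.6, 20.1 and 19.1 FPKM against 0.338, 0.196 and 0.592 FPKM (5.35, SE 0.31, adjusted p = 0.000315). MIR1913, annotated as a microRNA gene, had 6, 11 and 20 reads with siSRSF1-2 and none with OE-LINC01134, so it was at least 3.6-fold higher against a floor of 3 reads per library.

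The genes lower with siSRSF1-2 included hormones and other secreted factors that were high in the overexpressing cells. FGF21, a metabolic hormone of the fibroblast growth factor family, was at 6.96, 5.28 and 6.11 FPKM with siSRSF1-2 and at 55.3, 28.3 and 52.4 FPKM with OE-LINC01134 (log2 fold change -2.82, SE 0.27, limma adjusted p = 0.00133). Blank cells were at 6.10, 7.57 and 6.07 FPKM, overlapping with siSRSF1-2, and siSRSF1-3 cells were at 29.2, 25.2 and 17.4 FPKM. INHBE, a subunit of activin E, was at 6.56, 5.75 and 5.88 FPKM against 36.6, 20.3 and 35.7 FPKM (-2.28, SE 0.234, adjusted p = 0.00165). For INHBE every OE-LINC01134 library lay above the other 9 libraries of the series. HIF3A, a hypoxia-inducible factor subunit, showed the same order, with 0.412, 0.502 and 0.569 FPKM against 3.11, 2.40 and 3.08 FPKM (-2.32, SE 0.178, adjusted p = 0.000691).

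Keratins and an ion channel subunit were also among the largest negative differences. KRT81, a hair keratin and one of the more abundant genes called, was at 138, 128 and 129 FPKM with siSRSF1-2 and at 747, 609 and 698 FPKM with OE-LINC01134 (log2 fold change -2.37, SE 0.0908, limma adjusted p = 0.000123). The siSRSF1-2 libraries were the lowest of all 12 for KRT81, since blank cells had 320 to 481 FPKM and siSRSF1-3 cells 217 to 747 FPKM. KRT80, an epithelial keratin, was at 15.4, 13.2 and 13.4 FPKM against 65.6, 53.4 and 65.7 FPKM (-2.13, SE 0.108, adjusted p = 0.000266). SCNN1A, the alpha subunit of the epithelial sodium channel, was at 0.379, 0.294 and 0.297 FPKM against 1.79, 2.96 and 1.86 FPKM (-2.41, SE 0.241, adjusted p = 0.00152). Blank replicate 1 carried 45.7 FPKM of KRT80 and 1.58 FPKM of SCNN1A, whereas blank replicates 2 and 3 lay near the siSRSF1-2 libraries for both genes.

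The remaining genes with large negative differences had mixed roles. TMSB15A, an actin-binding thymosin, was at 1.98, 1.19 and 1.48 FPKM with siSRSF1-2 and at 9.62, 13.6 and 10.4 FPKM with OE-LINC01134 (log2 fold change -2.79, SE 0.214, limma adjusted p = 0.000691), and all 9 other libraries exceeded the siSRSF1-2 libraries. ZNF467, a zinc finger protein, was at 1.32, 0.916 and 1.21 FPKM against 4.73, 6.19 and 4.50 FPKM (-2.07, SE 0.184, adjusted p = 0.00107). CYP24A1, which degrades active vitamin D, was at 0.202, 0.222 and 0.241 FPKM against 1.05, 2.40 and 0.916 FPKM (-2.15, SE 0.373, adjusted p = 0.00935). The non-coding LNCAROD was at 0.052, 0.0506 and 0.211 FPKM against 0.894, 2.33 and 0.784 FPKM (-2.74, SE 0.511, adjusted p = 0.0118), and HRCT1 had 6 reads against 113. OE-LINC01134 replicate 2 had the highest level of CYP24A1, LNCAROD and HRCT1, and the call of HRCT1 was lost without any single siSRSF1-2 library. TRBJ2-4, a T cell receptor joining segment, had no read with siSRSF1-2 and 2, 8 and 5 reads with OE-LINC01134, so it was at least 1.85-fold lower against the floor of 3 reads per library. SNORD123, a small nucleolar RNA, had 1 read against 10, a ratio of 11 with a counting interval of 1.57 to 479.

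YWHAE and ARL6IP1 were the clearest cases in which the siSRSF1-2 libraries alone stood away from the rest. YWHAE, which encodes the adaptor protein 14-3-3 epsilon, was at 26.2, 25.8 and 26.9 FPKM with siSRSF1-2 and at 106, 107 and 101 FPKM with OE-LINC01134 (log2 fold change -1.99, SE 0.0506, limma adjusted p = 4.12e-05). YWHAE was at 89.6 to 115 FPKM in blank cells and at 98.9 to 195 FPKM with siSRSF1-3. ARL6IP1, a membrane-shaping protein of the endoplasmic reticulum, was at 6.80, 6.80 and 6.41 FPKM against 28.1, 25.03 and 27.8 FPKM (-1.998, SE 0.0699, adjusted p = 8.96e-05). Its level was 20.45 to 26.2 FPKM in blank cells and 24.5 to 29.6 FPKM with siSRSF1-3, so the second siRNA did not share the low level of either gene.

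**Figure D3:**
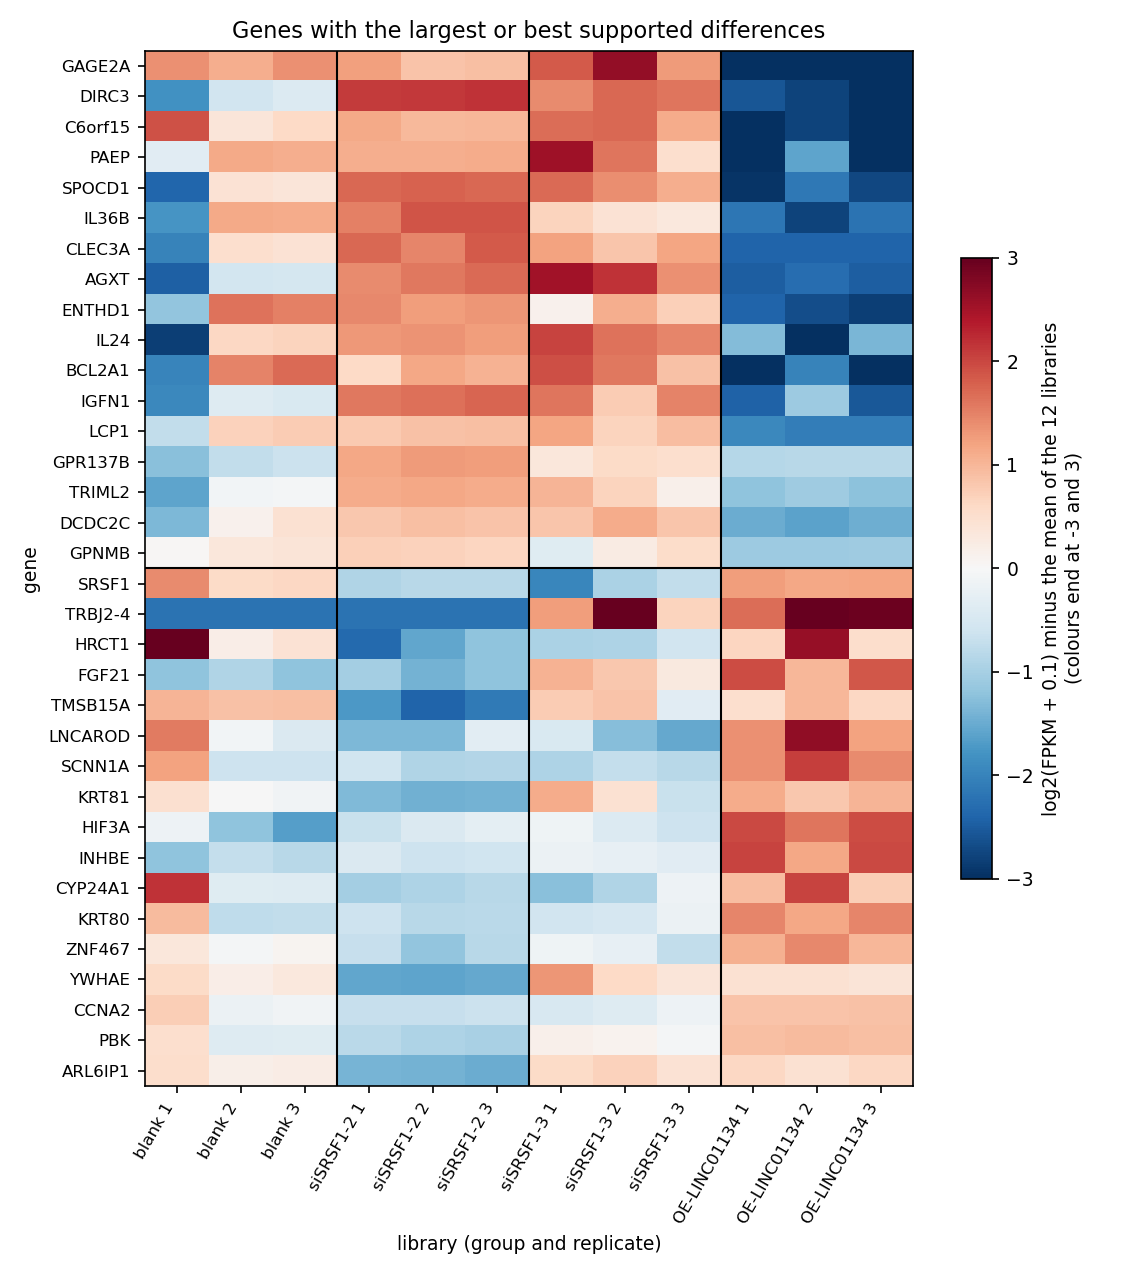
Log2(FPKM + 0.1) minus the mean over the 12 libraries for the genes with the largest or best supported differences (rows) in each library (columns), with colours ending at -3 and 3. Genes above the horizontal line were higher with siSRSF1-2 than with OE-LINC01134 and those below it were lower, and for YWHAE and ARL6IP1 only the siSRSF1-2 columns are blue.

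The 6 libraries outside the comparison showed which of the groups stood apart for the called genes. Of the 760 genes called higher, 337 (44.3%) had all OE-LINC01134 libraries below the other 9, against 4.44% of all genes tested. In 192 (25.3%, against 6.57%) all siSRSF1-2 libraries were above the other 9, and in 148 (19.5%, against 3.28%) all 6 siRNA libraries were above the other 6. Of the 413 genes called lower, 161 (39.0%, against 7.25%) had the siSRSF1-2 libraries below the other 9, 102 (24.7%, against 4.16%) had the OE-LINC01134 libraries above the other 9, and 93 (22.5%, against 3.38%) had all 6 siRNA libraries below the other 6. These patterns can hold together for 1 gene, and a called gene is already separated between the compared groups, so the shares describe the called genes and test nothing.

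Blank cells did not lie uniformly on one side. For the genes called higher, blank replicates 2 and 3 were nearer to the siSRSF1-2 mean than to the OE-LINC01134 mean in 76.8% and 74.9% of genes, whereas blank replicate 1 was nearer to it in 38.0%. The siSRSF1-3 libraries were nearer to siSRSF1-2 in 66.6%, 71.3% and 86.7% of these genes. For the genes called lower, the share nearer to siSRSF1-2 was 31.0%, 54.7% and 51.8% of genes in the blank libraries and 48.4%, 49.9% and 69.2% in the siSRSF1-3 libraries. Over all genes tested the same shares were 42.8% to 54.6% for blank and 48.3% to 57.9% for siSRSF1-3 libraries.

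The SR proteins that passed the test were mostly lower with siSRSF1-2 than with OE-LINC01134. Of 14 SR splicing factors, 13 were tested, and 7 were lower and 1 higher at an adjusted p under 0.05, with a median log2 fold change of -0.41. SRSF1 and TRA2A were called lower with the minimum fold, and no SR factor was called higher. Without OE-LINC01134 replicate 2, 8 were lower and 3 higher at an adjusted p under 0.05, and without siSRSF1-2 replicate 2 none was higher. TRA2A, a splicing activator related to the SR proteins, was at 16.02, 16.1 and 15.5 FPKM with siSRSF1-2 and at 35.2, 28.6 and 34.8 FPKM with OE-LINC01134 (-1.04, SE 0.0918, limma adjusted p = 0.00106). The difference of TRA2A was just beyond the minimum fold, and its call was lost without OE-LINC01134 replicate 1 or 3 and when FPKM were rescaled to each library's read total. SRSF7 was at 25.9, 26.7 and 27.1 FPKM against 47.2, 46.1 and 45.2 FPKM (-0.79, SE 0.0499, adjusted p = 0.00038). SRSF9 (-0.51), SRSF3 (-0.49), SRSF10 (-0.41) and TRA2B (-0.59) also passed the adjusted p in the lower direction. SRSF5 was the exception that was higher, at 69.5, 70.3 and 70.9 FPKM against 56.2, 59.3 and 55.1 FPKM (0.30, SE 0.0517, adjusted p = 0.00877). The groups of SRSF2, SRSF4 and SRSF11 overlapped (-0.17, -0.05 and -0.11, adjusted p = 0.254, 0.582 and 0.585), SRSF6 and SRSF8 were at 0.32 and 0.24 (adjusted p = 0.0832 and 0.0888), and SRSF12 was too low to be tested. Against the OE-LINC01134 mean, the list median was 0.11, -0.36 and -0.31 in the blank libraries and -0.40 to -0.43 with siSRSF1-2. Blank replicates 2 and 3 thus lay close to the siSRSF1-2 libraries. Every OE-LINC01134 library was above the other 9 for TRA2A, TRA2B and SRSF7. Every siSRSF1-2 library was below the other 9 for SRSF3, SRSF7 and TRA2A.

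Proteins that counteract or modify SR proteins were examined next. Of 25 hnRNP proteins, which often oppose SR proteins at splice sites, 21 were tested and 9 were lower and 0 higher at an adjusted p under 0.05 (13 lower and 0 higher at an unadjusted p under 0.05 by limma, 9 and 0 at an adjusted p by voom, limma's method for counts, on reads recovered from the FPKM), with a median of -0.32. None of the hnRNP genes reached the minimum fold. Over all genes tested, 15.1% were lower and 12.6% higher at an adjusted p under 0.05. HNRNPH1 was at 28.5, 29.4 and 30.5 FPKM with siSRSF1-2 and at 55.6, 44.9 and 55.7 FPKM with OE-LINC01134 (-0.81, SE 0.0974, adjusted p = 0.0027). HNRNPM was at 36.8, 38.6 and 38.6 FPKM against 61.03, 69.2 and 60.4 FPKM (-0.74), and HNRNPAB (-0.71) and HNRNPUL1 (-0.76) passed the test in the same direction. The count of lower hnRNP genes was 6 without siSRSF1-2 replicate 2 and 15 without OE-LINC01134 replicate 2, the extremes when 1 library was left out.

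Among 7 SR protein kinases, which phosphorylate the arginine-serine domains, SRPK1 and SRPK3 were higher with siSRSF1-2 (0.66 and 0.81, limma adjusted p = 0.0027 and 0.00328) and the list median was -0.05. Without OE-LINC01134 replicate 2, 4 other kinases of the list were lower at an adjusted p under 0.05. SRPK1 was at 18.1, 18.2 and 18.04 FPKM with siSRSF1-2 and at 10.8, 12.7 and 10.8 FPKM with OE-LINC01134, the lowest of the 12 libraries. Of 18 factors of mRNA decay and the exon junction complex, 4 were lower and 1 higher at an adjusted p under 0.05 (median -0.14). The shares of all genes tested were 15.1% and 12.6%. The count of lower decay and junction factors was 2 without siSRSF1-2 replicate 2 and 11 without OE-LINC01134 replicate 2. SMG9, a factor of nonsense-mediated decay, was at -0.83 (SE 0.0817, adjusted p = 0.00144) and SMG5, of the same pathway, at 0.36 (SE 0.0755, adjusted p = 0.0176). Of 17 tested genes with a reported SRSF1-dependent splice form, 2 were higher (KLF6 at 0.68 and MCL1 at 0.31) and 3 lower (BCL2L1 at -0.35 and TEAD1 at -0.64 among them), and their median was -0.01. Shares of this size are close to those of all genes tested (12.6% and 15.1%), and 6 were higher without OE-LINC01134 replicate 2. FPKM per gene do not resolve transcripts, so the splicing of these genes was not analysed.

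The broadest difference in named functions was in genes of DNA replication, of which 41 of 42 passed the test as lower with siSRSF1-2. All 42 listed genes were tested, all 42 had negative fold changes and no overlap between the groups, and the median was -0.87. At an adjusted p under 0.05, 41 were lower and 0 higher, and RPA1, a subunit of the single-strand binding complex, was the exception (-0.17, limma adjusted p = 0.088). With the minimum fold, 13 were called lower. At an unadjusted p under 0.05, 42 were lower and 0 higher, and voom gave the same counts as limma for adjusted p. Over all genes tested, 15.1% were lower and 12.6% higher at an adjusted p under 0.05. The groups did not overlap in the lower direction in 25.8% of all genes tested, and 2.35% were called lower.

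PRIM1, the catalytic subunit of primase, was at 4.04, 3.67 and 3.83 FPKM with siSRSF1-2 and at 15.1, 14.3 and 15.1 FPKM with OE-LINC01134 (log2 fold change -1.92, SE 0.0692, limma adjusted p = 9.8e-05). CDC6, which loads the replicative helicase, was at 6.999, 7.37 and 6.96 FPKM against 20.6, 19.5 and 19.4 FPKM (-1.47, SE 0.0602, adjusted p = 0.000151). TYMS, the enzyme that makes thymidylate, was at 21.4, 22.4 and 21.6 FPKM against 47.3, 48.4 and 47.4 FPKM (-1.13, SE 0.0489, adjusted p = 0.000179). MCM5, a subunit of the helicase, was at 12.5, 11.5 and 11.7 FPKM against 26.2, 26.5 and 25.9 FPKM (-1.14, SE 0.057, adjusted p = 0.000253). In these 4 genes the replicates of each group, OE-LINC01134 replicate 2 included, differed little beside the gap between groups. E2F1 and PCNA, chosen after their values were seen, followed the same order. E2F1, a transcription factor of S-phase genes, was at 16.3, 14.8 and 14.7 FPKM against 44.2, 36.7 and 45.4 FPKM (-1.45), and PCNA, the sliding clamp, was at 63.8, 60.1 and 61.05 FPKM against 147, 132 and 147 FPKM (-1.20).

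The order of the 12 libraries put the overexpressing cells near the top. Against the OE-LINC01134 mean, the median of the DNA replication genes was 0.19 in blank replicate 1 and -0.56 and -0.55 in blank replicates 2 and 3. It was -0.84 to -0.87 in the siSRSF1-2 libraries and -0.61 to -0.80 in the siSRSF1-3 libraries. Blank replicates 2 and 3 therefore lay closer to the knockdown libraries than to the overexpressing ones, and blank replicate 1 lay above all of them. When 1 library was left out, between 34 (without siSRSF1-2 replicate 1) and 42 (without OE-LINC01134 replicate 2) of the genes were lower at an adjusted p under 0.05.

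Genes of G2 and mitosis gave a similar picture. Of 40 listed genes, 39 were tested, 35 were lower and 0 higher at an adjusted p under 0.05 (35 and 1 at an unadjusted p by limma, 35 and 0 by voom), 7 were called lower with the minimum fold, and the median was -0.68. CCNA2, the cyclin of S phase and G2, was at 17.3, 17.5 and 18.1 FPKM with siSRSF1-2 and at 50.8, 51.4 and 52.2 FPKM with OE-LINC01134 (-1.54, SE 0.0486, adjusted p = 6.91e-05). MAD2L1, of the spindle checkpoint, was at 7.38, 7.16 and 7.28 FPKM against 17.3, 16.5 and 16.3 FPKM (-1.19, SE 0.0578, adjusted p = 0.000235). For both genes the siSRSF1-2 libraries were the lowest and the OE-LINC01134 libraries the highest of all 12. FOXM1, which activates mitotic genes, was at -0.95 (adjusted p = 0.000334) and BIRC5, the chromosomal passenger survivin, at -0.92 (adjusted p = 0.000342). PBK, a mitotic kinase outside the list, was at 37.2, 34.2 and 33.4 FPKM against 122.8, 126 and 122.8 FPKM (-1.82, SE 0.0592, adjusted p = 7.11e-05). When 1 library was left out, the count of lower G2 and mitosis genes was between 25 (without siSRSF1-2 replicate 1) and 37 (without OE-LINC01134 replicate 2). With all 6 libraries, 15.1% of all genes tested were lower and 12.6% higher at an adjusted p under 0.05.

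Other cell cycle genes were divided. Of 14 tested G1 cyclins, kinases and inhibitors, 6 were lower and 3 higher at an adjusted p under 0.05 (median -0.14). The shares of all genes tested were 15.1% and 12.6%. When any single library other than OE-LINC01134 replicate 2 was left out, 3 genes of the list were lower. Without OE-LINC01134 replicate 2, 6 were lower and 6 higher. CDKN2C, an inhibitor of CDK4 and CDK6, was at 4.93, 4.85 and 4.24 FPKM with siSRSF1-2 and at 9.34, 13.3 and 9.09 FPKM with OE-LINC01134 (-1.14, SE 0.163, adjusted p = 0.00484), and its call was lost without OE-LINC01134 replicate 2. CDKN2B, the related inhibitor, moved the other way, at 1.38, 1.73 and 1.62 FPKM against 0.034, 0.361 and 0.0517 FPKM (2.99, SE 0.499, adjusted p = 0.00828), and was named after its value was seen. Of 70 clustered histone genes only 28 reached the minimum level, and 8 of them were lower and 0 higher at an adjusted p under 0.05 (8 and 0 at an unadjusted p by limma, 6 and 0 by voom; median -0.56). HIST1H2BJ was at 14.1, 12.05 and 12.7 FPKM against 27.1, 38.0 and 25.4 FPKM (-1.19, SE 0.162, adjusted p = 0.00412). Most histone mRNAs carry no poly(A) tail, and the copies of a histone are similar, so these levels are uncertain. The count of lower histones was 3 without siSRSF1-2 replicate 2 and 11 without OE-LINC01134 replicate 2.

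**Figure D4:**
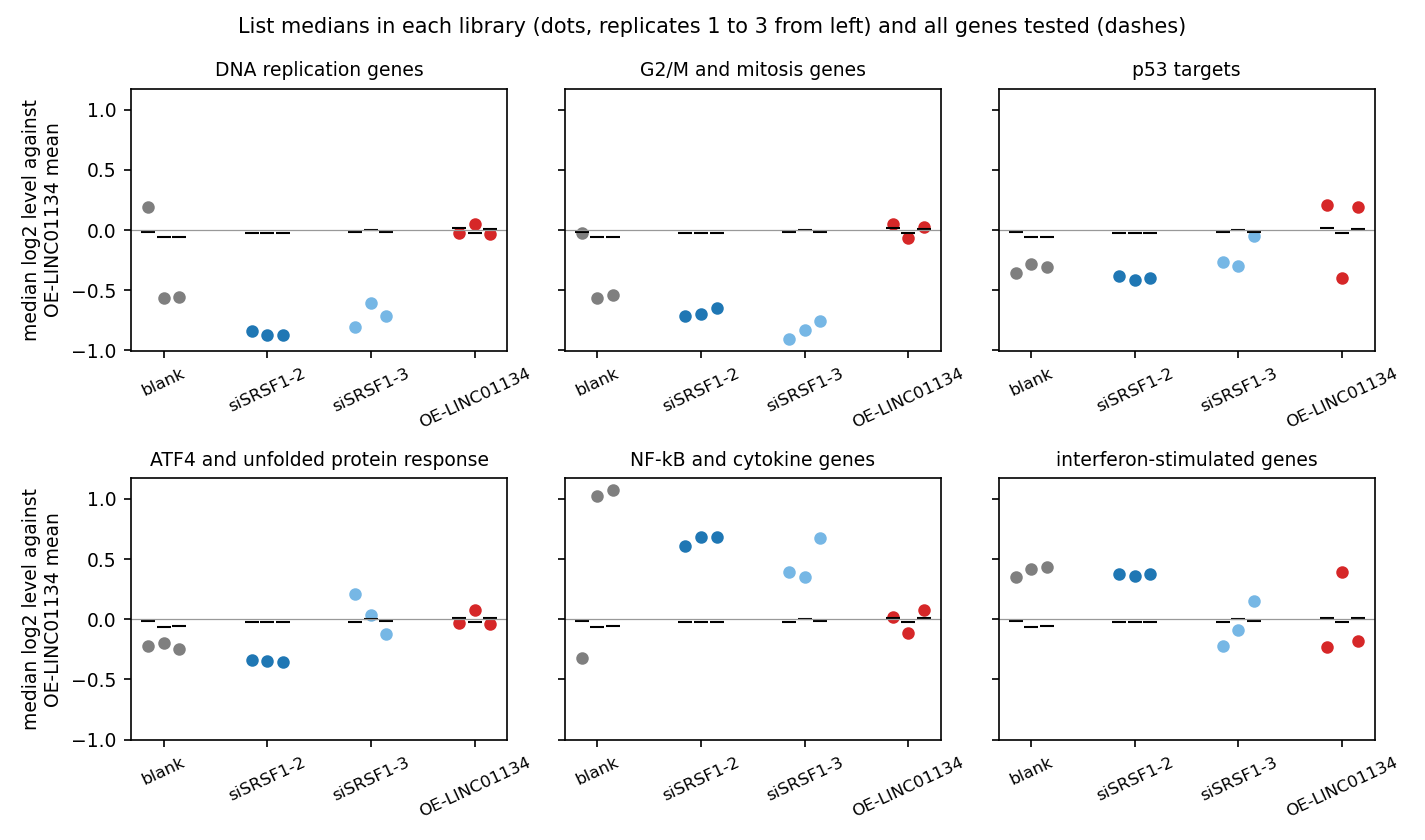
Median log2 level of 6 gene lists in each library relative to the OE-LINC01134 mean (dots, replicates 1 to 3 from left) with the median of all genes tested (dashes). The DNA replication median was -0.84 to -0.87 in the siSRSF1-2 libraries, and OE-LINC01134 replicate 2 stood away from replicates 1 and 3 for the p53 targets (-0.39 against 0.20 and 0.19) and the interferon-stimulated genes (0.39 against -0.23 and -0.18).

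Inflammatory genes had the highest median of the lists with more than 1 tested member, although without OE-LINC01134 replicate 2 their median was 0.53 and that of the collagens 0.66. Of 28 NF-kB target and cytokine genes, 20 were tested, 12 were higher and 0 lower at an adjusted p under 0.05 (16 and 0 at an unadjusted p by limma, 15 and 0 by voom), and the median was 0.66. The shares of all genes tested were 12.6% higher and 15.1% lower at an adjusted p under 0.05. CCL20, a chemokine for dendritic cells and lymphocytes, was at 28.7, 33.4 and 33.8 FPKM with siSRSF1-2 and at 5.82, 5.10 and 6.69 FPKM with OE-LINC01134 (2.43, SE 0.119, adjusted p = 0.000236). PTGS2, the inducible cyclooxygenase, was at 9.43, 9.73 and 10.1 FPKM against 3.43, 3.13 and 3.52 FPKM (1.51, SE 0.0783, adjusted p = 0.000286). BIRC3, an NF-kB-induced inhibitor of apoptosis, was at 7.82, 8.89 and 9.45 FPKM against 3.18, 3.36 and 2.95 FPKM (1.43, SE 0.101, adjusted p = 0.000522). IL1A was at 34.1, 35.8 and 35.96 FPKM against 19.6, 19.4 and 19.1 FPKM (0.86, SE 0.0509, adjusted p = 0.000332). CXCL8, the neutrophil chemokine interleukin-8, was the other gene called with the minimum fold, and was named after its value was seen. It was at 141, 188 and 192 FPKM against 55.1, 15.7 and 54.4 FPKM (2.25, SE 0.498, adjusted p = 0.0209).

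The blank libraries disagreed on these inflammatory genes. CCL20 was at 6.41 FPKM in blank replicate 1 and at 72.0 and 73.6 FPKM in replicates 2 and 3, and CXCL8 was at 2.97 FPKM in blank replicate 1 and at 281 and 291 FPKM in the others. The list median against the OE-LINC01134 mean was -0.32, 1.02 and 1.07 in the blank libraries, 0.60 to 0.68 with siSRSF1-2 and 0.35 to 0.67 with siSRSF1-3. Where the siSRSF1-2 libraries lay relative to blank cells thus depended on the blank library. When 1 of the 6 compared libraries was left out, between 7 (without siSRSF1-2 replicate 1) and 15 (without OE-LINC01134 replicate 2) of the NF-kB and cytokine genes were higher at an adjusted p under 0.05.

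Immediate early genes pointed the same way in part. Of 17 tested AP-1 and immediate early genes, 7 were higher and 0 lower at an adjusted p under 0.05 (9 and 1 at an unadjusted p by limma, 8 and 0 by voom, with a median of 0.34). At an adjusted p under 0.05, 12.6% of all genes tested were higher and 15.1% lower. EGR1, a growth-factor-induced transcription factor, was at 132, 134 and 140 FPKM with siSRSF1-2 and at 17.2, 31.6 and 17.4 FPKM with OE-LINC01134 (2.67, SE 0.238, adjusted p = 0.00107). EGR2 was at 1.40, 1.51 and 1.44 FPKM against 0.0655, 0.189 and 0.0569 FPKM (2.98, SE 0.303, adjusted p = 0.00161). Both genes were highest of all 12 libraries with siSRSF1-2. JUNB was at 60.9, 61.1 and 61.5 FPKM against 25.8, 41.4 and 24.2 FPKM (1.05, SE 0.2, adjusted p = 0.0129), and lost its call without any single library other than OE-LINC01134 replicate 2. The phosphatase DUSP5 was at 0.89 (SE 0.0532, adjusted p = 0.000336). The count of higher genes in the list was 3 without siSRSF1-2 replicate 1 and 9 without OE-LINC01134 replicate 2.

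Interferon-stimulated genes depended on OE-LINC01134 replicate 2. Of 25 tested, 5 were higher and 1 lower at an adjusted p under 0.05, with a median of 0.35, beside 12.6% higher over all genes tested. Without that library 17 were higher, in a fit in which the higher genes over all genes also rose, from 2204 to 4454. ISG20, an antiviral exonuclease, was at 3.49, 3.58 and 3.27 FPKM with siSRSF1-2 and at 1.38, 1.36 and 1.36 FPKM with OE-LINC01134 (1.27, SE 0.0959, limma adjusted p = 0.000671). STAT2, which carries the interferon signal to the nucleus, was at 0.48 (SE 0.0551, adjusted p = 0.00248). DDX58, the RNA sensor RIG-I, was at 5.54, 6.25 and 5.90 FPKM against 2.43, 4.15 and 2.34 FPKM (1.01, SE 0.223, adjusted p = 0.0205). DDX58 in OE-LINC01134 replicate 2 lay nearest to the knockdown, and the call was lost without any single one of the other 5 libraries. Without siSRSF1-2 replicate 3 only 2 genes of the list were higher at an adjusted p under 0.05.

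Targets of p53 that passed the test were mostly lower with siSRSF1-2, and their number again turned on OE-LINC01134 replicate 2. Of 25 tested, 5 were lower and 1 higher at an adjusted p under 0.05 (median -0.41), a share not far from the 15.1% of all genes tested, and without that library 20 were lower and 3 higher, while the lower genes over all genes tested rose from 2650 to 5356. Without siSRSF1-2 replicate 1 the count of lower targets was 3. Against the OE-LINC01134 mean, the list median was -0.36, -0.28 and -0.30 in the blank libraries and -0.38 to -0.41 with siSRSF1-2. It was 0.20, -0.39 and 0.19 in the OE-LINC01134 libraries. DDB2, which recognises ultraviolet damage in DNA, was at 14.1, 13.3 and 12.5 FPKM with siSRSF1-2 and at 34.1, 20.95 and 34.99 FPKM with OE-LINC01134 (-1.13, SE 0.203, limma adjusted p = 0.0103). PPM1D, the phosphatase that restrains p53, was at 9.62, 9.23 and 9.79 FPKM against 20.9, 13.6 and 20.3 FPKM (-0.90, SE 0.168, adjusted p = 0.0118). In both genes OE-LINC01134 replicate 2 was the library nearest to the knockdown. FDXR, a mitochondrial reductase, was at -0.87 (SE 0.0966, adjusted p = 0.00216) and CCNG1 at -0.50 (SE 0.0588, adjusted p = 0.00262).

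Genes of the ATF4 and unfolded protein responses that passed the test were mostly lower too. All 34 listed genes were tested, 15 were lower and 2 higher at an adjusted p under 0.05, and the median was -0.35. With the minimum fold, FGF21, PDIA4, ASNS and STC2 were called lower. PDIA4, a disulfide isomerase of the endoplasmic reticulum, was at 12.3, 12.8 and 11.7 FPKM with siSRSF1-2 and at 27.8, 36.1 and 28.1 FPKM with OE-LINC01134 (-1.31, SE 0.113, limma adjusted p = 0.00104). ATF4 itself was at 237, 228 and 229 FPKM against 365, 337 and 354 FPKM (-0.60, SE 0.059, adjusted p = 0.00142). The chaperone gene HSPA5 was at 152, 147 and 147 FPKM against 262, 226 and 260 FPKM (-0.74, SE 0.074, adjusted p = 0.00153). ASNS, which makes asparagine, was at 6.28, 6.25 and 6.69 FPKM against 18.7, 10.5 and 17.8 FPKM (-1.23, adjusted p = 0.0102), and blank cells, at 5.46 to 6.66 FPKM, overlapped with the knockdown. The count of lower genes was 8 without siSRSF1-2 replicate 2 and 26 without OE-LINC01134 replicate 2. Cytosolic chaperones differed little, with 4 of 22 lower and 1 higher (median -0.11), beside 15.1% and 12.6% of all genes tested. Among them CCT4, a subunit of the ring chaperonin, was at -0.91 (SE 0.0767, limma adjusted p = 0.000949). With OE-LINC01134 replicate 2 left out, the chaperone median turned to 0.09, with 12 genes higher and 7 lower.

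The antioxidant genes that passed the test were higher with siSRSF1-2. Of 19 tested NRF2 targets and ferritin genes, 8 were higher and 0 lower at an adjusted p under 0.05 (8 and 0 at an unadjusted p by limma, 8 and 0 by voom), beside 12.6% and 15.1% of all genes tested. The median of the list was 0.35. The median was 0.08 without OE-LINC01134 replicate 1 and 0.11 without replicate 3. SRXN1, which repairs peroxiredoxins, was at 5.83, 8.41 and 8.78 FPKM with siSRSF1-2 and at 1.60, 1.87 and 1.56 FPKM with OE-LINC01134 (2.11, SE 0.178, adjusted p = 0.000946). HMOX1, the inducible heme oxygenase, was at 111, 112 and 106 FPKM against 51.6, 40.5 and 49.9 FPKM (1.22, SE 0.101, adjusted p = 0.000904). TXNRD1, the thioredoxin reductase, was at 93.2, 101 and 99.0 FPKM against 55.2, 51.2 and 56.1 FPKM (0.85, SE 0.0624, adjusted p = 0.000592), and GCLM, of glutathione synthesis, was at 0.69 (SE 0.0776, adjusted p = 0.00225). The siSRSF1-2 libraries were the highest of the 12 for SRXN1 and TXNRD1. The count was 6 without siSRSF1-2 replicate 2 and 14 without OE-LINC01134 replicate 2.

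Genes of the ribosome and of respiration differed by small amounts. Of 84 tested cytosolic ribosomal protein genes, 13 were lower and 0 higher at an adjusted p under 0.05 (22 and 1 at an unadjusted p by limma, 12 and 0 by voom), with a median of -0.15, and the share of lower genes was near the 15.1% of all genes tested. Of 77 mitochondrial ribosomal protein genes, 27 were lower and 1 higher (median -0.23), and of 75 nuclear genes of oxidative phosphorylation, 36 were lower and 1 higher (median -0.24). None of the ribosomal protein genes passed the minimum fold, and ATP5MF, a subunit of ATP synthase, was the exception among the respiratory genes. ATP5MF was at 39.9, 34.1 and 40.9 FPKM with siSRSF1-2 and at 80.9, 82.4 and 76.9 FPKM with OE-LINC01134 (-1.07, SE 0.0831, adjusted p = 0.000714), and its call was lost without siSRSF1-2 replicate 2. NDUFC2, a subunit of complex I, was at 5.99, 6.18 and 6.55 FPKM against 11.6, 13.8 and 10.8 FPKM (-0.94, SE 0.105, adjusted p = 0.00224). The counts in the lower direction were between 2 and 26, between 9 and 51 and between 17 and 48 in these lists when 1 library was left out, lowest without siSRSF1-2 replicate 2 and highest without OE-LINC01134 replicate 2. Without the latter library 10 cytosolic and 10 mitochondrial ribosomal protein genes were higher.

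The transcripts of the mitochondrial genome that passed the test were higher. Of 13 genes, 4 were higher and 0 lower at an adjusted p under 0.05 (5 and 0 at an unadjusted p by limma, 4 and 0 by voom), beside 12.6% and 15.1% of all genes tested. The median of the 13 genes was 0.19. The median was 0.34 without OE-LINC01134 replicate 2, 0.09 without replicate 3 and 0.12 without siSRSF1-2 replicate 3. MT-ATP8 was at 506, 553 and 587 FPKM with siSRSF1-2 and at 377, 392 and 390 FPKM with OE-LINC01134 (0.50, SE 0.0754, adjusted p = 0.00572), and MT-ND1, MT-ND4 and MT-ND4L were at 0.48 to 0.59. Mitochondrial transcripts took 5.86% to 6.13% of the reads with siSRSF1-2 and 4.45% to 5.30% with OE-LINC01134. The mitochondrial 16S RNA (ENSG00000210082), named after its value was seen, was at 3831, 3726 and 3923 FPKM against 1571, 2079 and 1530 FPKM (1.16, SE 0.141, adjusted p = 0.00281). The part of these transcripts in the other results was not tested. The count of higher genes was 1 without siSRSF1-2 replicate 3 and 10 without OE-LINC01134 replicate 2.

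**Figure D5:**
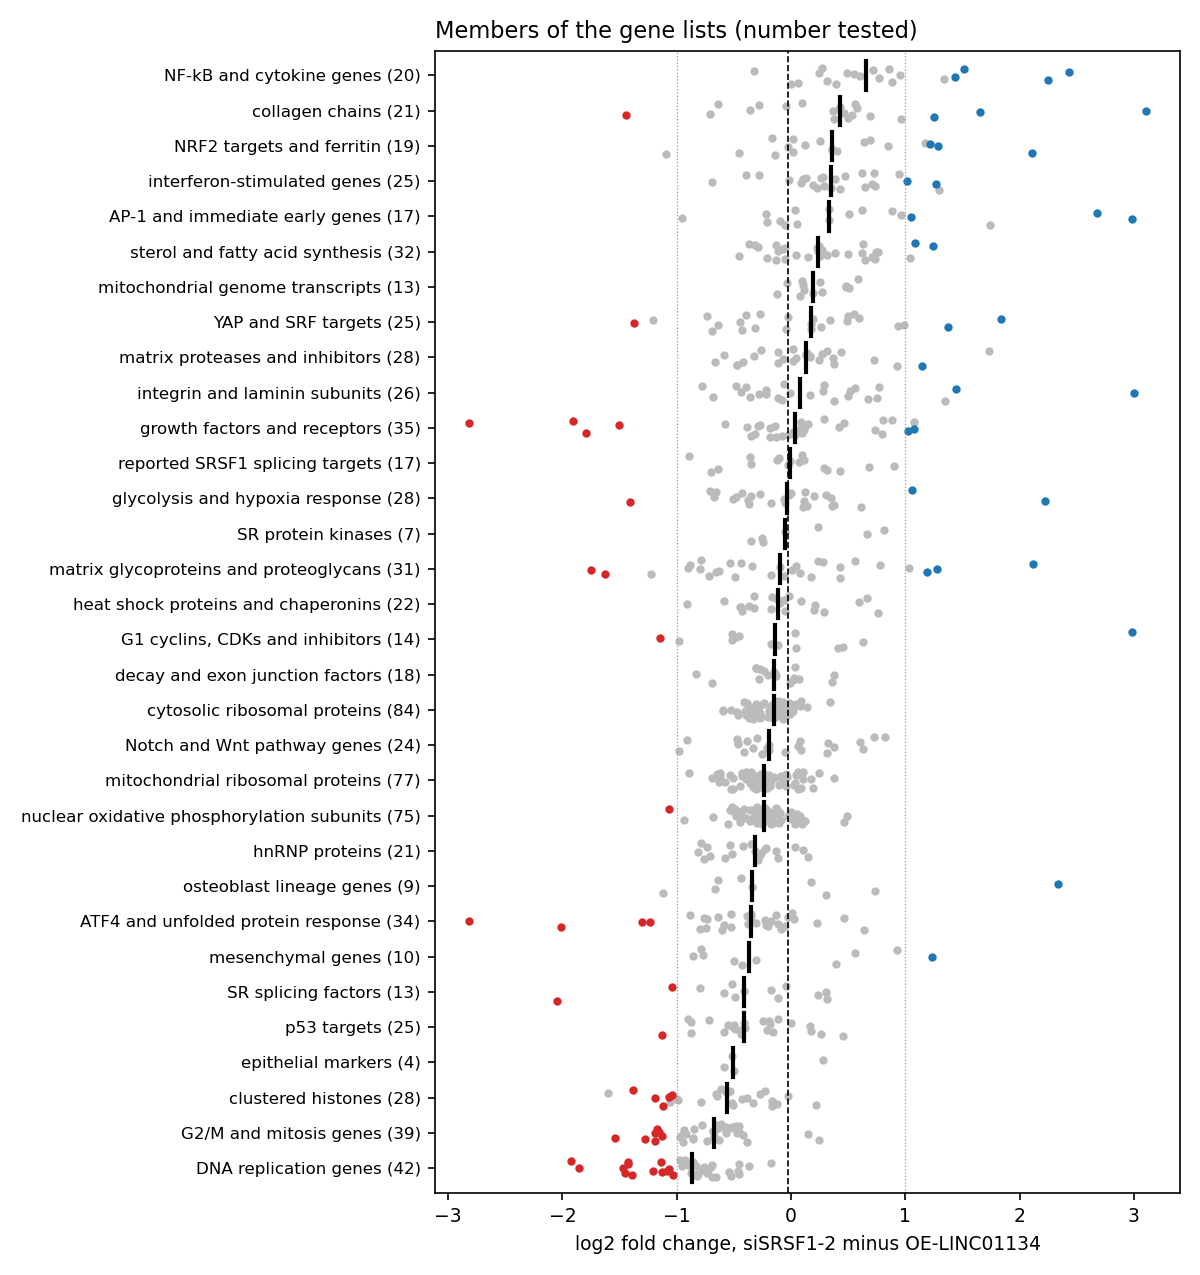
Log2 fold change (siSRSF1-2 minus OE-LINC01134) of each tested member of the gene lists (dots, with blue and red for genes called higher and lower), the median of each list (thick bars), the median of all genes tested (dashed line) and the minimum fold (dotted lines). The DNA replication genes lie entirely left of 0 with a median of -0.87, and the NF-kB and cytokine genes have a median of 0.66, which was 0.53 without OE-LINC01134 replicate 2.

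Matrix and adhesion genes contained large single differences in both directions. Of 44 collagen chains, 21 were tested, 4 were higher and 2 lower at an adjusted p under 0.05, beside 12.6% and 15.1% of all genes tested, and the median was 0.42 (0.26 without OE-LINC01134 replicate 1 and 0.66 without replicate 2). COL6A3, a chain of microfibrillar collagen VI, was at 29.6, 32.1 and 34.0 FPKM with siSRSF1-2 and at 1.73, 14.3 and 1.84 FPKM with OE-LINC01134 (3.11, SE 0.79, limma adjusted p = 0.0325). OE-LINC01134 replicate 2 lay between the groups, the difference without it was 4.08, and the call was lost without any single other library. COL8A1 was at 0.981, 0.860 and 0.95 FPKM against 2.498, 2.91 and 2.69 FPKM (-1.44, SE 0.123, adjusted p = 0.000981). ITGAX, an integrin of leukocytes, was at 5.01, 5.34 and 4.94 FPKM against 0.351, 1.34 and 0.321 FPKM (3.00, SE 0.475, adjusted p = 0.00687). LAMA1, a laminin chain of basement membranes, was at 52.1, 54.4 and 55.9 FPKM against 22.6, 14.7 and 23.5 FPKM (1.44, SE 0.182, adjusted p = 0.0032), and NID1, which links laminin to collagen IV, was at 47.4, 48.9 and 50.8 FPKM against 20.003, 23.5 and 21.1 FPKM (1.19, SE 0.0744, adjusted p = 0.000378). LAMA1 and NID1 were higher with siSRSF1-2 than in any of the other 9 libraries.

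The remaining matrix lists were mixed. Of all genes tested 12.6% were higher and 15.1% lower, and the proteases and inhibitors fell below both shares. Among 31 matrix glycoproteins and proteoglycans 3 were higher and 6 lower (median -0.10). LUM, a small proteoglycan of collagen fibrils, was at 1.45, 1.58 and 1.67 FPKM against 0.207, 0.487 and 0.209 FPKM (2.12, SE 0.299, limma adjusted p = 0.0047), and FBN2, a microfibril protein, was at -0.88 (SE 0.0674, adjusted p = 0.000691). Of 28 matrix proteases and inhibitors, 1 was higher, the metalloprotease ADAM12 (1.14, SE 0.184, adjusted p = 0.0072, lost without OE-LINC01134 replicate 2), and 1 lower, ADAM15 (-0.58, SE 0.122, adjusted p = 0.017). Of 26 integrin and laminin subunits, 5 were higher and 2 lower (median 0.08, and -0.04 without OE-LINC01134 replicate 1). Without OE-LINC01134 replicate 2, the counts of higher genes were 14 collagens, 11 glycoproteins, 13 integrins and laminins and 14 proteases and inhibitors, while higher genes over all genes tested rose from 2204 to 4454. No collagen passed an adjusted p under 0.05 in the higher direction without OE-LINC01134 replicate 3 or without any single siSRSF1-2 library, and 1 did without OE-LINC01134 replicate 1.

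The shares of growth factor, Notch and Wnt genes past the test were near those of all genes tested (12.6% higher and 15.1% lower). A larger share of the YAP and SRF targets was higher. Single genes differed in both directions. Of 35 growth factors and receptors, 6 were higher and 4 lower (median 0.04). PDGFC, a platelet-derived growth factor, was at 3.87, 3.43 and 3.89 FPKM with siSRSF1-2 and at 13.03, 13.9 and 12.6 FPKM with OE-LINC01134 (-1.80, SE 0.0819, limma adjusted p = 0.00021). FGFR1 was at 8.64, 9.12 and 8.85 FPKM against 3.94, 4.29 and 4.21 FPKM (1.08, SE 0.0707, adjusted p = 0.000429), and EGFR was at 0.88 (SE 0.0856, adjusted p = 0.00137). Of 25 YAP and SRF targets, 9 were higher and 5 lower (median 0.17, and -0.01 without OE-LINC01134 replicate 2). TAGLN, an actin-binding protein of smooth muscle, was at 13.2, 13.04 and 13.2 FPKM against 2.79, 5.37 and 3.10 FPKM (1.84, SE 0.237, adjusted p = 0.00348), whereas AJUBA, a LIM-domain scaffold, was at 17.3, 16.8 and 16.7 FPKM against 51.5, 32.2 and 51.8 FPKM (-1.38, SE 0.188, adjusted p = 0.00425). Of 24 Notch and Wnt pathway genes, 4 were higher and 3 lower (median -0.19). LEF1, a transcription factor of Wnt signalling, was at 0.82 (SE 0.122, adjusted p = 0.00562) and the Wnt receptor FZD1 at -0.98 (SE 0.1, adjusted p = 0.00163). Without OE-LINC01134 replicate 2, 16 growth factors and receptors were higher and 9 lower, and 11 YAP and SRF targets were higher and 11 lower. The median of the Notch and Wnt genes turned to 0.10 in that fit, with 8 higher and 6 lower. When any other single library was left out, 1 Notch or Wnt gene was higher and between 1 and 3 were lower. In the same fits 4 growth factors and receptors were higher and 3 or 4 lower. Between 6 and 8 YAP and SRF targets were higher and between 2 and 4 lower.

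Genes of sterol synthesis that passed the test were higher, and those of glycolysis were divided. Of 32 genes of sterol and fatty acid synthesis, 10 were higher and 0 lower at an adjusted p under 0.05 (14 and 2 at an unadjusted p by limma, 10 and 0 by voom; median 0.24). INSIG1, which retains the sterol sensor in the endoplasmic reticulum, was at 6.06, 6.28 and 6.60 FPKM with siSRSF1-2 and at 2.48, 3.32 and 3.01 FPKM with OE-LINC01134 (1.09, SE 0.122, adjusted p = 0.00226), and its call was lost without OE-LINC01134 replicate 1. SREBF2, the transcription factor of the pathway, was at 41.3, 42.1 and 40.5 FPKM against 23.1, 29.1 and 23.97 FPKM (0.71, SE 0.0954, adjusted p = 0.00404), and FASN, the fatty acid synthase, was at 0.62 (SE 0.0896, adjusted p = 0.0051). The count was 6 without siSRSF1-2 replicate 2 and 20 without OE-LINC01134 replicate 2. Of 28 genes of glycolysis and the hypoxia response, 3 were higher and 7 lower, beside 12.6% and 15.1% of all genes tested. Their median was -0.04, and 0.07 without OE-LINC01134 replicate 2. With that library left out, 10 genes of the list were higher and 10 lower. ENO2 was at 0.61 (SE 0.0493, limma adjusted p = 0.000823) and the glucose transporter SLC2A1 at -0.66 (SE 0.0771, limma adjusted p = 0.00257).

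Markers of cell types were checked in the same libraries. Summed over 17 osteoblast lineage genes, the level was 94.4 to 98.7 FPKM with siSRSF1-2 and 88.6 to 134 FPKM with OE-LINC01134, and COL1A2, SP7, IBSP, SOST and DMP1 were at or near 0 in all 6 libraries, whereas SPARC (35.96 to 66.3 FPKM), SPP1 (13.9 to 29.6 FPKM), COL1A1 (14.1 to 29.6 FPKM) and RUNX2 (1.55 to 2.38 FPKM) were present. Of the 9 osteoblast lineage genes tested, 1 was higher and 2 lower at an adjusted p under 0.05 (median -0.34). The shares of all genes tested were 12.6% and 15.1%. No gene of the list was lower without OE-LINC01134 replicate 1 or without any single siSRSF1-2 library. Without OE-LINC01134 replicate 2, 3 were higher and 5 lower. ALPL, the alkaline phosphatase of bone, was at 7.53, 7.87 and 7.55 FPKM with siSRSF1-2 and at 1.21, 2.22 and 1.09 FPKM with OE-LINC01134 (2.34, SE 0.253, limma adjusted p = 0.00204). Of 10 tested mesenchymal genes, 2 were higher and 2 lower (median -0.37, and 0.11 without OE-LINC01134 replicate 2), beside the same 12.6% and 15.1% of all genes tested. The sum of 13 mesenchymal genes was 128 to 132 FPKM with siSRSF1-2, 127 and 131 FPKM in OE-LINC01134 replicates 1 and 3 and 325 FPKM in replicate 2. VIM, the intermediate filament vimentin, accounted for most of that gap, at 68.7, 248 and 69.4 FPKM with OE-LINC01134 and 77.3 to 79.1 FPKM with siSRSF1-2, and it did not pass the test (-0.43, adjusted p = 0.562). SNAI2, a transcription factor of mesenchymal cells, was at 1.23 (SE 0.219, adjusted p = 0.01).

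Markers of other cell types were low. Only 4 epithelial, 1 endothelial and 1 blood cell marker reached the level for testing. EPCAM, an epithelial adhesion protein, was lower at -0.50 (limma adjusted p = 0.0303). When any single library other than OE-LINC01134 replicate 2 was left out, no epithelial marker passed an adjusted p under 0.05. TIE1, an endothelial receptor, was higher at 1.27 (limma adjusted p = 0.0349), a call lost without any single library other than OE-LINC01134 replicate 2. The 8 epithelial markers summed to 4.50 to 5.22 FPKM with siSRSF1-2 and 7.15 to 8.05 FPKM with OE-LINC01134, the 8 endothelial markers to 1.56 to 1.74 and 1.30 to 1.75 FPKM, and the leukocyte genes PTPRC and CD3E were at or near 0. The 9 blood cell markers summed to 12.7 to 16.2 FPKM with siSRSF1-2 and 7.33 to 7.65 FPKM with OE-LINC01134, nearly all of it from HBB, a beta-globin gene (15.8, 12.6 and 12.2 FPKM against 7.30, 6.62 and 7.35 FPKM, log2 fold change 0.91, adjusted p = 0.00316). In bulk libraries fewer cells of a type and less RNA per cell cannot be told apart. The part of these markers in the other results was not tested.

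The called genes were finally set beside siSRSF1-3 against blank, which shares no library with the comparison. The median log2 fold change of siSRSF1-3 minus blank was 0.16 for the genes called higher (56.2% positive), -0.12 for the genes called lower (44.6% positive) and -0.01 over all genes tested (49.3% positive). The fold changes of the comparison and of siSRSF1-3 minus blank had a Pearson r of 0.0327 across 17538 genes, which are not independent replicates. These medians rested on blank replicate 1, since without it they were -0.08 for the genes called higher and 0.03 for those called lower. Values of single genes showed both outcomes. GPR137B was higher with siSRSF1-3 (39.9 to 46.6 FPKM) than in blank cells (13.1 to 20.1 FPKM), whereas FGF21 was also higher with siSRSF1-3 than in blank cells although it was lower with siSRSF1-2 than with OE-LINC01134.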

How the data were processed

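The authors deposited FPKM per gene and library for U2OS cells in 4 groups of 3 libraries. The sample labels give mouse as the organism, but the identifiers are human. The labels name a SMARTer kit and the supplementary methods a NEBNext kit with poly-T selection and 150 bp reads. The aligner, counting program, strand setting and the human genome build are not given in the sources used here, so coordinates are those of the file, and reads shared by paralogs or antisense genes may be split in ways that are not known. FPKM times gene length was a whole number of reads (within 0.001) for 100% of values, and the FPKM carry median-of-ratios scaling.

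Values of log2(FPKM + 0.1) of the 3 siSRSF1-2 and 3 OE-LINC01134 libraries entered 1 linear model per gene (limma 3.58.1, eBayes with a trend, R 4.3.3) wherever the mean over the 12 libraries reached 0.5 FPKM. Adjusted p-values are Benjamini-Hochberg over all 17538 genes, and called genes had an adjusted p under 0.05 and a log2 fold change beyond 1. Exact two-sided permutation tests were added for SRSF1 and LINC01134, and the fit was tested on simulated data. Symbols were matched through the file's full gene names.

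Named genes were SRSF1, LINC01134 and the SR factors, the 12 largest and 5 best supported called genes per direction whose groups do not overlap and whose higher group has a mean of at least 1 FPKM (leaving out pseudogenes, uncharacterised transcripts and numbered non-coding RNAs), the 4 members of each list with the smallest adjusted p, and the 3 largest called non-coding genes per direction. Others are said to be chosen after their values were seen. Members, 34 gene lists and tests were chosen with earlier results of these data known. Alternatives covered the pseudocount, filter, scaling, trend, fit over 4 groups, replicate block, averaged libraries, voom on the recovered reads and the omission of each library. No sequences are shown, since no human reference was used here.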

Additional observations from a re-analysis of the deposited data

How the results depend on the processing

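Every gene called kept its direction under the alternatives in which it was tested. The named gene SRSF4, which was not called, changed sign, at -0.05 and from -0.11 to 0.0039 over the alternatives. Some list medians changed sign in some fits. Without OE-LINC01134 replicate 2 those of the chaperones, YAP and SRF targets, Notch and Wnt genes and glycolysis genes did so. In that fit the mesenchymal median, which was not near 0, turned from -0.37 to 0.11. The siSRSF1-3 medians of the called genes changed sign without blank replicate 1. The counts were 361 higher and 207 lower with a pseudocount of 1, 2204 and 2650 with no minimum fold, and 266 lower in 1 fit over the 4 groups. Leaving out 1 library gave 484 to 1111 higher and 320 to 599 lower genes. The extremes were 489, 484 and 496 higher without siSRSF1-2 replicate 1, 2 or 3, and 1111 higher without OE-LINC01134 replicate 2. With the 3 alike siSRSF1-2 libraries averaged into 1, limma called 0 genes higher and 1 lower (607 and 386 past an unadjusted p under 0.05), SRSF1 was at -2.05 (adjusted p = 0.119) and LINC01134 kept its call. That fit assumes that the lone siSRSF1-2 value varies like the OE-LINC01134 libraries. Averaging OE-LINC01134 replicates 1 and 3, chosen after seeing the data, gave 617 and 347. The higher share of calls was 64.8%, and 70.3% or 70.0% with FPKM scaled to read totals or to equal sums. Over the alternatives, the called-gene medians of siSRSF1-3 against blank were -0.08 to 0.29 and -0.20 to 0.03 when 1 of those libraries was left out. Of the tests of the other named genes, 3630 kept their side of the threshold, 169 lost it and 101 gained it. The cause of these shifts was not tested.

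With a replicate block, 628 genes were higher and 373 lower. Deviations of same-numbered libraries correlated by 0.0043, 0.0188 and 0.0055. The siSRSF1-2 libraries were closely alike, which left little deviation to correlate. This check therefore cannot show whether the numbers pair the samples.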
